A study of Arabidopsis thaliana with 9 samples.

Results

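NAC transcription factors are a plant family that share a DNA-binding domain near the amino terminus, and they were taken here as the genes whose symbol on the ATH1 array is NAC or ANAC followed by a number. Only 1 gene met this rule, NAC014 (AT1G33060, also ANAC014), of the 13356 genes that the annotation assigns to a probe set of their own. It is measured by 1 of the 22810 probe sets in the table. The current Arabidopsis gene table holds 99 genes with a NAC number as symbol or synonym, and 98 of them had no probe set named for them in the array annotation used here, so their probe sets were not analysed by name. The values below therefore describe NAC014 and not the family.

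NAC proteins act in root cap and xylem formation, organ boundaries, senescence and responses to drought, salt and low oxygen. A subgroup, to which NAC014 belongs, carries a membrane-spanning segment near the carboxyl terminus. Such factors are held at a membrane until a cut releases the DNA-binding part, which then enters the nucleus. In the best studied members, which include NAC013 and NAC017, the release is linked to signals from the mitochondria, and a transcript level does not show how much of the protein has been released.

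Expression was measured in dissected roots of Arabidopsis thaliana seedlings of the ecotype Wassilewskija (WS), grown for 5 d in the light and then kept for 24 h in a low pressure growth chamber. The groups were 97 kPa, the ambient pressure of the site, 50 kPa, in which oxygen fell along with total pressure, and 50 kPa/NormOx, in which oxygen was restored to a partial pressure of 21 kPa. All groups had the same carbon dioxide partial pressure, light and plate medium with benomyl. Each group held 3 arrays, each from 1 tube of seedlings pooled from a plate, with a different chamber for each tube within a group. The replicate numbers are those of the sample titles. The description of 50 kPa replicate 2 gives it number 3, as does that of 50 kPa replicate 3. The signal is the linear MAS5 value, scaled by the authors to a common target on every array.

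None of the 9 root markers chosen to check the tissue had a named probe set, so the root label could not be checked with them. Of 9 shoot markers, 5 had a probe set, and their summed signal ran from 5708 to 8020 on the 97 kPa arrays, from 8073 to 13291 at 50 kPa and from 4603 to 11928 at 50 kPa/NormOx. SPCH and MUTE, which act early in the stomatal lineage, had group means between 6.70 and 57.2, under the floor of 66.6 used to leave out dim probe sets, whereas LHCB4.1, a light-harvesting antenna protein, had group means between 3629 and 5754. STOMAGEN, a secreted peptide that promotes stomata, had group means of 309 at 97 kPa, 744 at 50 kPa and 595 with added oxygen, and RCA, which activates Rubisco, of 2511, 3668 and 3355 in the same order. The summed level of these markers was higher on every 50 kPa array than on every 97 kPa array, but only narrowly. The lowest 50 kPa sum was 8073 and the highest 97 kPa sum 8020, and RCA by itself overlapped between these groups. The sum overlapped between 50 kPa/NormOx and both other groups. Among the tested markers STOMAGEN had the largest difference between 50 kPa and 97 kPa, 1.24 on the log2 scale or 2.36-fold, but was not called (limma, adjusted p = 0.267). Its 50 kPa arrays lay entirely above the 97 kPa arrays, as they did for 6.20% of tested probe sets. The array 50 kPa/NormOx replicate 2 had a mean correlation of 0.945 with the other 50 kPa/NormOx arrays and of 0.951 with the arrays of the other groups. For 50 kPa/NormOx replicates 1 and 3 these were 0.946 and 0.947 within the group, and 0.944 and 0.943 with the other groups. By mean correlation replicate 2 thus differed in its likeness to the other groups and not in that to its own. Other measures set it apart from its group. Its shoot marker sum was 11928, against 4603 and 6475 for replicates 1 and 3. On the second axis of a principal component analysis it lay at -27.3, against 13.8 and 5.57 for these. The 50 kPa arrays ran from -20.9 to -11.0 on this axis.

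NAC014 had signals of 289, 337 and 304 on the 97 kPa arrays of replicates 1, 2 and 3. At 50 kPa its signals were 426, 329 and 350, and at 50 kPa/NormOx they were 244, 247.5 and 210.5. The 50 kPa/NormOx arrays were the lowest of all 9, and the highest of them lay below the lowest 97 kPa array. The 97 kPa and 50 kPa arrays overlapped, since 50 kPa replicate 2 read below 97 kPa replicate 2. In whole roots, fewer cells that express the gene and less of its RNA per cell cannot be told apart.

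By group the mean signal was highest at 50 kPa (369 ± 51.0, SD, n = 3), lower at 97 kPa (310 ± 24.6) and lowest at 50 kPa/NormOx (234 ± 20.5). In this order the neighbours 50 kPa and 97 kPa differed by little more than the spread of the 50 kPa arrays, while the difference between 97 kPa and 50 kPa/NormOx was larger than the SD of either group. The mean log2 signal of NAC014 over the 9 arrays was 8.22, above the floor of 6.06 on the log2 scale, so the gene stayed in the test in all groups. Its residual SD, the spread between its own arrays within groups, was 0.15 on the log2 scale. Its moderated SD, which limma draws toward that of other probe sets and uses in the tests, was 0.23. The median moderated SD over all tested probe sets was 0.26.

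**Figure D1:**
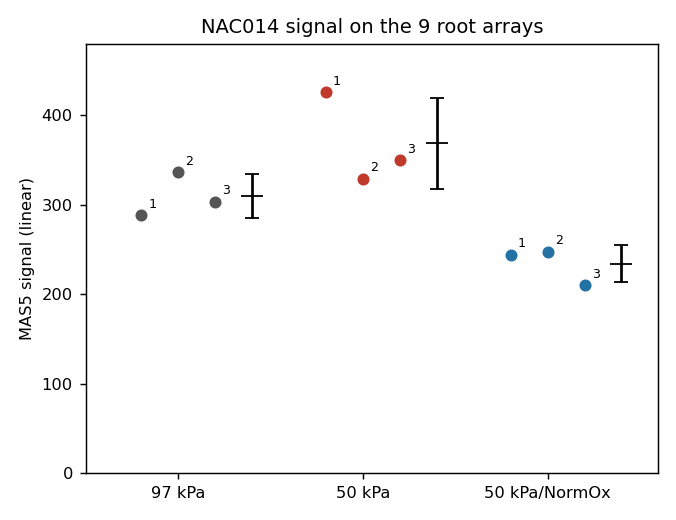
Linear MAS5 signal of NAC014 (vertical axis, from 0) on each of the 9 root arrays by group. Points are arrays with their replicate number, and the black bars are the group mean ± SD (n = 3). The 50 kPa/NormOx arrays lie between 210.5 and 247.5, below all other arrays.

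The first question was how roots responded when pressure and oxygen dropped together, from 97 kPa to 50 kPa. NAC014 was not called, with a log2 difference of 0.25 ± 0.19 (SE), or 1.19-fold (limma, adjusted p = 0.719). The 95% interval of the difference ran from -0.15 to 0.64 on the log2 scale. In this comparison 0.0947% of the 15832 tested probe sets were called at an adjusted p under 0.05, so a call was rare for any gene. The median log2 difference over all tested probe sets was -0.04, slightly below 0, with 43.2% of them above 0.

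Low pressure alone was examined by setting 50 kPa/NormOx against 97 kPa, since oxygen stayed at its ambient level in both. NAC014 had a log2 difference of -0.41 ± 0.19 and was not called (limma, adjusted p = 0.386). Its 95% interval, from -0.80 to -0.01, ended just below 0 and did not hold across fits, as it included 0 in 6 of 10 alternative fits and in 8 of 9 with an array left out. All 3 arrays at 50 kPa/NormOx read below all 3 at 97 kPa. This is common, since 10.3% of tested probe sets had their 50 kPa/NormOx arrays entirely below the 97 kPa arrays, and 12.7% had an unadjusted p under 0.05. Called at an adjusted p under 0.05 were 0.392% of probe sets.

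The effect of added oxygen at equal pressure was read from 50 kPa against 50 kPa/NormOx, which gave the largest difference of the 5 comparisons for NAC014. The signal was 1.57-fold higher at 50 kPa, a log2 difference of 0.65 ± 0.19 with a 95% interval from 0.25 to 1.05. After adjustment over all 15832 probe sets the difference did not pass (limma, adjusted p = 0.359). The arrays of the groups did not overlap, which held in this direction for 4.80% of tested probe sets, and 0.0821% were called. An unadjusted p under 0.05 was reached by 9.04%. An exact two-sided permutation test of NAC014 over 20 splits gave p = 0.1 both here and for 50 kPa/NormOx against 97 kPa, the smallest p that 3 against 3 arrays allow. That p only restates the lack of overlap, which in either direction held for 12.5% of tested probe sets here and 18.5% there. The study's rule, an unadjusted p under 0.01 together with a difference of at least 2-fold, was applied there against 97 kPa and to differently processed values. In this comparison it was met by 0.442% of probe sets and not by NAC014, whose p met it but whose fold did not.

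When both 50 kPa groups were set together against 97 kPa, 1 of them with a higher and the other with a lower mean than the control, the log2 difference of NAC014 was -0.08 ± 0.16 (limma, adjusted p = 0.890). In that comparison 0.234% of probe sets were called. When 50 kPa was set against the mean of 97 kPa and 50 kPa/NormOx, the groups with ambient oxygen, the log2 difference was 0.45 ± 0.16, with a 95% interval from 0.10 to 0.79 (limma, adjusted p = 0.542), and 0.114% were called. An unadjusted p under 0.05 was reached by 7.79% of probe sets there. Without 50 kPa replicate 1 the difference was 0.34 and its interval included 0. These comparisons reuse the same arrays and are not separate evidence.

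**Figure D2:**
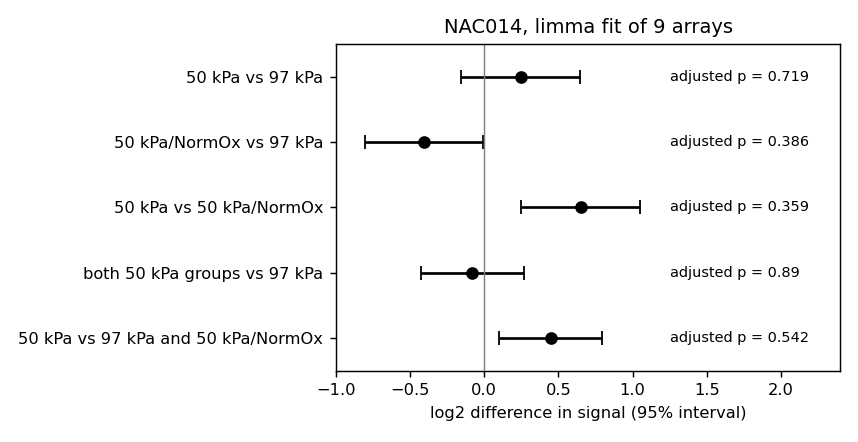
Log2 difference in NAC014 signal (horizontal axis) for the 5 comparisons, as limma estimates with 95% intervals from the fit of all 9 arrays and the adjusted p at the right. The interval for 50 kPa against 50 kPa/NormOx runs from 0.25 to 1.05, and no adjusted p is under 0.05.

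Other measurements were compared with the low values of NAC014 at 50 kPa/NormOx, and not all of them moved with those values. The mean signal of the hybridization spikes, control RNAs added to every sample, ran from 20437 to 28538 on the 50 kPa/NormOx arrays and from 18471 to 19916 on the 97 kPa arrays, without overlap. At 50 kPa it ran from 16786 to 21941. The part of the spike difference in the NAC014 result was not tested. The median signal of the arrays ran from 207 to 217 at 97 kPa, from 196 to 201 at 50 kPa and from 201 to 206 at 50 kPa/NormOx. With each array divided by its median signal in place of the deposited scaling, the difference between 50 kPa and 50 kPa/NormOx was 0.67. Between 50 kPa/NormOx and 97 kPa it was then -0.35 in place of -0.41 (limma, unadjusted p = 0.088). The tested shoot markers were higher on average at 50 kPa than at 50 kPa/NormOx, with log2 differences of 0.72 for LHCB4.1, 0.44 for STOMAGEN and 0.27 for RCA that were not called (limma, adjusted p = 0.409, 0.734 and 0.856). At 50 kPa/NormOx against 97 kPa the differences were -0.26, 0.80 and 0.23 in this order, and none was called. STOMAGEN and RCA were thus higher there than at 97 kPa, whereas NAC014 was lower. The log2 signals of the 3 markers correlated with NAC014 over the 9 arrays at 0.59, 0.32 and 0.10 in the same order, and at 0.05, 0.64 and -0.10 once group means were removed. The part of shoot tissue in the NAC014 result was not tested. Without 50 kPa/NormOx replicate 2, the difference between 50 kPa and 50 kPa/NormOx was 0.69 (limma, adjusted p = 0.161). This adjusted p was the lowest of the 9 fits with an array left out, and the highest was 0.701. The unadjusted p of NAC014 was 0.00534 there, against 0.00336 with all arrays (limma). An adjusted p also depends on the other probe sets, of which 97 were called in that fit, against 13 with all arrays. The ratio of 3' to 5' signal for GAPDH, a measure of the bias of labelled RNA to the 3' end, ranged from 58.0 to 78.5 at 97 kPa, from 32.3 to 69.3 at 50 kPa and from 55.9 to 108 at 50 kPa/NormOx, with overlap between all groups.

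NAC014 lies on chromosome 1 beside AT1G33055, a gene of unknown product that was among the few probe sets called in these roots. Of the 3 protein-coding genes on each side of NAC014 in the gene table, 4 had a named probe set and 3 were tested. AT1G33055, the nearest of them on one side, had signals of 105, 33.0 and 86.4 at 97 kPa, of 477, 318 and 1219 at 50 kPa and of 111, 85.1 and 57.6 at 50 kPa/NormOx. Its 50 kPa arrays were far above all others, although the 97 kPa arrays lay near the floor and the size of the rise is therefore uncertain. The log2 difference was 3.09 ± 0.49 against 97 kPa (limma, adjusted p = 0.0186) and 2.80 ± 0.49 against 50 kPa/NormOx (limma, adjusted p = 0.0456).

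NAC014 was highest in the same group as this neighbour, but its differences were 0.25 and 0.65, and 50 kPa replicate 3, the highest array for AT1G33055, was not the highest for NAC014. The difference between the 2 genes was not tested. The other tested neighbours did not share the pattern of levels. AT1G33050, which overlaps AT1G33055 in the gene table, had its lowest mean at 50 kPa, with 261 ± 38.3 against 386 ± 27.2 at 97 kPa and 332 ± 75.0 at 50 kPa/NormOx. The log2 difference from 97 kPa was -0.57 ± 0.21 and was not called (limma, adjusted p = 0.419). AT1G33080, on the other side, had its highest mean at 97 kPa, 381 ± 56.2, with 294 ± 43.7 at 50 kPa and 268 ± 45.5 at 50 kPa/NormOx, and was not called in any comparison. AT1G33070, which lies between NAC014 and AT1G33080, was too dim for testing, with signals from 4.53 to 61.8.

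**Figure D3:**
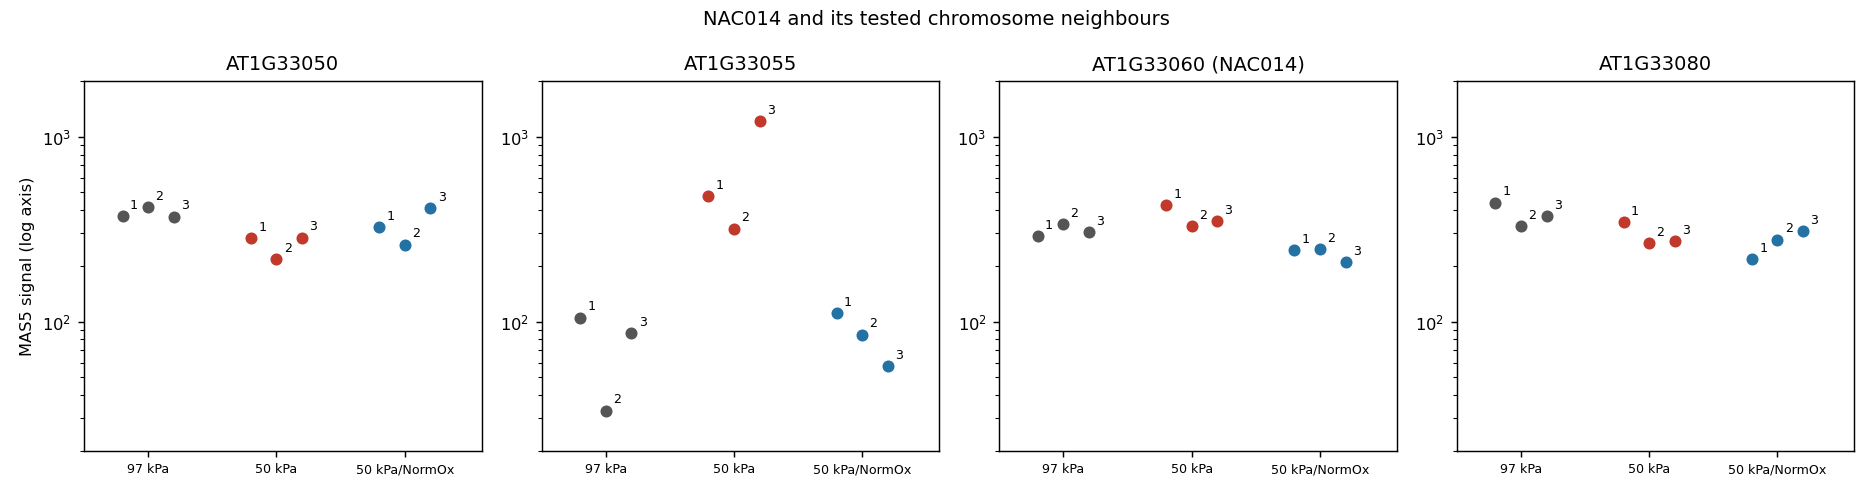
Linear MAS5 signal on a log axis for NAC014 (AT1G33060) and its tested chromosome neighbours on the 9 root arrays, in gene order. Points are arrays with their replicate number. AT1G33055 reaches 318 to 1219 at 50 kPa and at most 111 elsewhere, while NAC014 stays between 210.5 and 426.

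A second NAC gene could be read outside the rule. The study's own gene tables, which list genes it selected for their response to low pressure or low oxygen, pair AT5G18270, ANAC087, with a probe set that the array annotation left unnamed. ANAC087 acts with other NAC factors in programmed cell death of the root cap. Its signals were 197, 222 and 169 at 97 kPa, 195, 103 and 185 at 50 kPa and 200.1, 127.5 and 112 at 50 kPa/NormOx. The groups overlapped, and the array values within each low pressure group were spread more widely than for NAC014 in relation to their mean. The log2 difference from 97 kPa was -0.33 ± 0.31 at 50 kPa (limma, adjusted p = 0.789) and -0.46 ± 0.31 at 50 kPa/NormOx (limma, adjusted p = 0.587). Between 50 kPa and 50 kPa/NormOx it was 0.12 ± 0.31, with a 95% interval from -0.54 to 0.79.

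Genes that act downstream of NAC factors were covered thinly. A list of 13 genes that respond to mitochondrial signals through membrane-bound NAC factors had 6 tested members, and none was called in any of the 5 comparisons. Their median log2 difference was -0.10 at 50 kPa against 97 kPa, 0.04 at 50 kPa/NormOx against 97 kPa and -0.15 between 50 kPa and 50 kPa/NormOx, where the medians over all tested probe sets were -0.04, -0.02 and -0.02. AT2G41730 was the member with the smallest unadjusted p. It had signals of 244, 266 and 212 at 97 kPa, of 404, 314 and 292 at 50 kPa and of 415, 292 and 362 at 50 kPa/NormOx, so that all low pressure arrays read above all 97 kPa arrays. Against 97 kPa both 50 kPa groups together had a log2 difference of 0.52 ± 0.18 (limma, adjusted p = 0.264), and 1.78% of tested probe sets had low pressure arrays entirely above the controls. Its probe set carries a suffix for probes that can bind other transcripts.

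AT2G21640 had the same arrangement of arrays with smaller differences, 0.30 ± 0.19 at 50 kPa and 0.39 ± 0.19 at 50 kPa/NormOx (limma, adjusted p = 0.657 and 0.420). AT5G09570, named as a Cox19-like CHCH family protein in the study's tables, was the member ordered like NAC014. Its mean was 311 ± 24.0 at 50 kPa, against 292 ± 48.2 at 97 kPa and only 229 ± 43.7 at 50 kPa/NormOx, and its log2 difference between 50 kPa and 50 kPa/NormOx was 0.46 ± 0.21 (limma, adjusted p = 0.546). NDB2, an NAD(P)H dehydrogenase of the mitochondrial inner membrane, GSTU25, a glutathione S-transferase, and AT5G51440 had log2 differences between -0.56 and 0.08 in both comparisons with 97 kPa. The lowest was that of AT5G51440 at 50 kPa, -0.56 ± 0.45 (limma, adjusted p = 0.743). Its 50 kPa arrays, from 50.3 to 67.8, read entirely below its 97 kPa arrays, from 68.6 to 120, as for 9.78% of tested probe sets. These signals lay near the floor of 66.6.

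SWEET15, a sugar exporter also known as SAG29 and raised in senescing leaves, was the only tested gene of 7 senescence genes under NAC control. Its signals ran from 16.4 to 101 at 97 kPa, from 21.7 to 138 at 50 kPa and from 71.8 to 160 at 50 kPa/NormOx, and the wide spread left log2 differences of 0.41 ± 0.76 and 1.06 ± 0.76 from 97 kPa that were not called (limma, adjusted p = 0.909 and 0.608). Of the genes for root cap cell separation, AT1G65570 was below the floor, with signals from 3.99 to 46.9. The 10 genes of xylem wall formation had no named probe set.

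**Figure D4:**
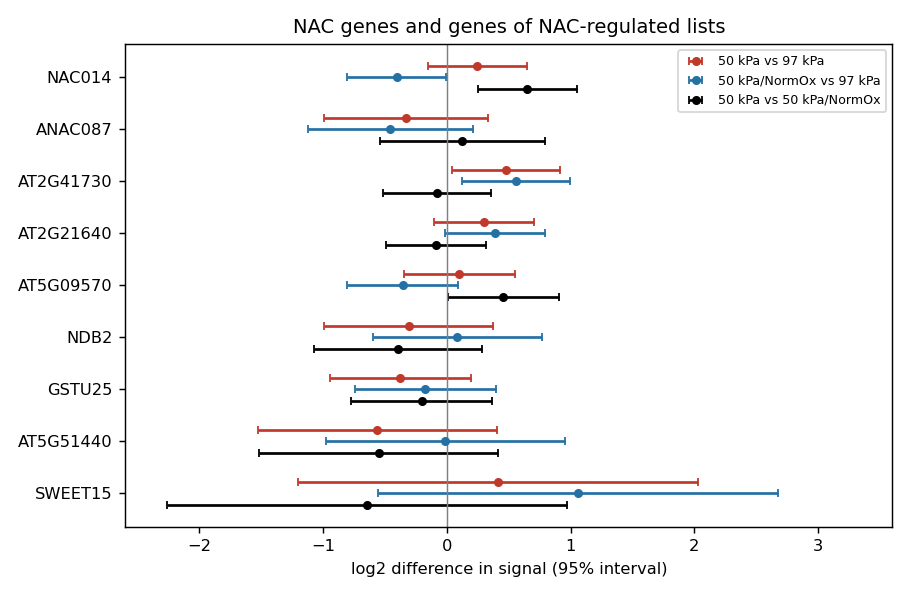
Log2 difference in signal (horizontal axis) with 95% intervals from limma for NAC014, ANAC087, the 6 tested genes of the mitochondrial signal list and SWEET15, in the 3 pairwise comparisons of groups (colours). Most intervals span 0; for NAC014 the black interval of 50 kPa against 50 kPa/NormOx lies above it, from 0.25 to 1.05.

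The genes whose log2 signals followed NAC014 most closely over the 9 arrays were sought among 8700 other tested probe sets that name 1 gene, by a rule set after the values of NAC014 were known. The highest Pearson correlation was 0.93 for AT5G47550 (Spearman rho = 0.98), followed by 0.92 for AT1G43910 (rho = 1), a P-loop nucleoside triphosphate hydrolase by the study's tables, and 0.91 for AT1G12810 (rho = 0.88). AT5G47550 had a mean of 1815 ± 207 (SD, n = 3) at 50 kPa, of 1596 ± 36.9 at 97 kPa and of 1362 ± 89.5 with added oxygen. For AT1G43910 the means were 210 ± 32.7, 177 ± 28.1 and 148 ± 10.5 in the same order. The most opposite gene was AT2G29260 with -0.94 (rho = -0.93), which had 203 ± 27.0 at 50 kPa/NormOx, 136 ± 18.7 at 97 kPa and 113 ± 19.9 at 50 kPa. These are the extremes of a large search over 9 arrays that fall into the same groups, and they are given as a description. The neighbour AT1G33055 ranked at 401 of 8700 in this search, with 0.58.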

How the data were processed

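Roots were measured on 9 ATH1 arrays, grouped by the sample titles. The deposited intensity values are linear MAS5 signals made by the authors in Affymetrix Expression Console (versions not given in the sources used here), without detection calls, scaled to a common target, so that a shift in all mRNA would go unseen. The study itself tested robust multi-chip average values, which were not used here. No sample column was left unused. Left out were 64 control and 130 organelle probe sets, of which 77 were named as organelle genes and the others fell in the same run of probe set numbers. Of the remaining 22616, the 6784 (30%) with the lowest mean log2 signal were left out, with a floor at a signal of 66.6, and 15832 were tested. Log2 signals of all 9 arrays were fitted in limma 3.58.1 (R 4.3.3) with an intensity trend in the variance and two-sided tests, and calls were made where the Benjamini-Hochberg adjusted p was under 0.05. The code of the fit was checked on simulated data with known changes. How often a change of the size seen for NAC014 would be called is not given here. Gene names came from the platform annotation, in which 13513 name 1 gene, 503 name several and 8794 are not listed, and 13436 of the first were matched to the TAIR10.1 gene table. Genome coordinates are not given because no build is named for the array. Where a gene has several probe sets the brightest was used.

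Named were NAC014, its neighbours, ANAC087 and genes of lists drawn up from textbook knowledge, by smallest p. The gene and the lists were chosen with earlier results of these data known. The neighbours, ANAC087 and the search for similar genes were added after values had been seen. Depth has no count on arrays, and their number limits the precision. Alternatives covered the filter, scaling, offset (log2 of signal plus 32), variance model, array weights, arrays in the fit, a replicate block, the threshold, organelle probe sets and leaving out each array.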

Additional observations from a re-analysis of the deposited data

How the results depend on the processing

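NAC014 kept its direction and stayed uncalled under all alternatives run. Many of them could not change the direction. The filter, the variance trend, the organelle probe sets, the threshold and the fit of only the groups compared leave a difference of group means as it is. Leaving out an array of a group outside a pairwise comparison does so too. As the only gene that met the naming rule, it also gives the median of the members, but not of the family. Its differences ran from 0.22 to 0.33 for 50 kPa against 97 kPa, from -0.42 to -0.35 for 50 kPa/NormOx against 97 kPa, and from 0.59 to 0.67 for 50 kPa against 50 kPa/NormOx (limma, adjusted p from 0.297 to 0.545). With each array left out they ran from 0.14 to 0.32, from -0.45 to -0.33 and from 0.54 to 0.73, and for the averaged comparisons from -0.13 to -0.02 and from 0.34 to 0.52. For 50 kPa/NormOx against 97 kPa the interval included 0 in 6 of the 10 alternatives that refit the model (no filter, quantile normalization, the offset, only the groups compared, the replicate block and array medians) and in 8 of 9 fits with an array left out, the exception being the fit without 50 kPa replicate 1. The probe set rule could not change NAC014, which has 1 probe set.

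The numbers of probe sets called depended on the fit, and the causes were not tested. They were 15 for 50 kPa (A) and 62 for 50 kPa/NormOx (B) against 97 kPa, 13 for 50 kPa against 50 kPa/NormOx (C), 37 for both 50 kPa groups against 97 kPa (D) and 18 for 50 kPa against both other groups (E). In limma without the variance trend they were 6, 0, 4, 0 and 9 in this order, with 1801 (B) and 1706 (D) at an unadjusted p under 0.05. At the study's threshold they were 101, 143, 70, 83 and 51. Array weights gave 35, 121 and 139 for A, B and D. Fits of only the groups compared gave 62 and 103 for A and B. The offset gave 26 and 63 for A and D, the filter at 50% gave 60 for D, and division by array medians, chosen after seeing the data, gave 27 for A. With each array left out they ran from 8 to 53, 2 to 104, 8 to 97, 4 to 69 and 7 to 96, with the highest always without 50 kPa/NormOx replicate 2.

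Same-numbered arrays of different groups share only a number by the titles, and their deviations from the group means correlated from -0.05 to 0.11 (9 pairs). These values and the block take 50 kPa replicates 2 and 3 from the titles, since both descriptions give number 3. With the replicate block 30, 28 and 58 probe sets were called for A, C and D, and NAC014 stayed uncalled. In this balanced design a block cannot move the differences, and the SE of NAC014 went from 0.187 to 0.202.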
